A study of Zea mays with 3 samples.

Results

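Anthers of Mu-active maize plants were compared at 2 lengths, 1.5 mm and 2.0 mm, by the RNA level of every transcript probe on a maize 4x44K array. The series holds 12 arrays with 2 channels each, 4 arrays per anther length (1.0, 1.5 and 2.0 mm), and each array carried a Mu-active sample in 1 dye and a Mu-inactive sample in the other. The values described here are those of 8 of the 24 channels, the Mu-active channels of the 4 arrays at 1.5 mm and of the 4 arrays at 2.0 mm, and all 42034 transcript probes were kept. The Mu-active sample was labeled with Cy3 on arrays 1 and 2 of a stage and with Cy5 on arrays 3 and 4.

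The Mu-active line carries active Mutator (Mu) transposons, which are mobilized by the autonomous element MuDR, and the Mu-inactive line carries silenced ones. No inbred background is named for either line in the sample labels, and no agent was applied. Anthers came from field-grown plants and were frozen at dissection, and RNA was extracted from pooled tissue, so a lower level can mean fewer cells of a type or less RNA per cell and these cannot be told apart. The labels number 4 samples per line and stage but do not say whether they came from different plants. They also give the dye of each numbered sample without naming its array, and if their numbers were taken as array numbers the lines would be swapped. The channel assignment was therefore set beside the transposon probes. The MuDR-TIRA, MUDRB and Mu1-matched probes were brighter in the channel taken as Mu-active on 4 of 4 arrays at each length. The MUDRA-21 probe was brighter there on 4 of 4 arrays at 1.5 mm and on 2 of 4 at 2.0 mm, the MUDRA probe on 2 of 4 at each length, and another transposon probe, A_92_P014269, on 1 and 0 of 4, and the other 3 annotated to Mutator elements on 2 or 3 of 4. The deposited ratios, whose titles name the active line before the inactive one, had a Pearson correlation across probes of 0.988 and 0.991 with the ratios computed under this assignment. Their direction is not otherwise stated, so the correlation alone cannot settle the assignment.

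Because the 4 arrays of each length shared a slide, a stage effect and a slide effect cannot be told apart, and no p-value is given between the stages. Differences are given as fold sizes with the values of each array. A probe is called higher or lower at 2.0 mm when the mean log2 normalized intensity of the 4 arrays differed by at least 2-fold and the ranges of the 4 arrays did not overlap. A probe was ON at a stage when, on at least 3 of 4 arrays, its normalized signal exceeded the negative control mean by over 3 SD. Raw median signals were low, 1.23 to 1.45 times the average of the 153 negative controls at 1.5 mm and 1.25 to 1.44 times at 2.0 mm, and the cutoff for ON after normalization lay between 84.9 and 90.3 units on the 8 arrays.

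Maize anthers of these lengths are well past the setting of cell fates. Somatic layers (epidermis, endothecium, middle layer and tapetum) surround the pollen mother cells, which enter prophase of meiosis at about these lengths. In some inbreds they are in prophase at the shorter length and near pachytene, when homologs are paired along their length, at the longer one, whereas others are later, and the stage of these lines was not checked here. The tapetum feeds the meiocytes and later supplies material for the pollen wall, and the subepidermal endothecium carries chloroplasts although the young tassel is enclosed in leaves. Among floral genes, the B-class stamen gene Silky1 was bright on every array, at 18683 to 25120 units at 1.5 mm and 13788 to 25211 at 2.0 mm. By contrast, pollen allergen probes, which mark mature pollen, lay between 69 and 115 units at both lengths, around the cutoff for ON. Of the 6 probes named for mature pollen, 5 were ON at 1 or both stages. Among them LIM12, described as a pollen-specific protein, read 285 to 519 units at 1.5 mm and 182 to 309 at 2.0 mm. The arabinogalactan protein probe BAN102 read 91.2 to 140 and 260 to 1953 units.

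At 1.5 mm 27106 probes were ON and at 2.0 mm 28486, with 25974 shared. The cutoffs for ON differed between the stages. They were 88.0 to 90.2 units at 1.5 mm, and 90.3, 84.9, 85.6 and 85.8 units on the arrays at 2.0 mm. With raw signals in place of normalized ones, 26243 probes were ON at 1.5 mm and 26372 at 2.0 mm. Of all 42034 probes, 524 were higher at 2.0 mm (percent called 1.25) and 342 were lower (0.814), together 866 (2.06). All 866 were ON at 1 or both stages. Relative to the 29618 probes ON at 1 or both stages, these are 1.77% higher and 1.15% lower. The upward differences were larger, since 121 probes differed by at least 4-fold upward and 33 downward, and at 8-fold the numbers were 34 and 6. The median log2 difference was 1.44 among the higher probes and -1.22 among the lower ones, against -0.002 over all probes. Between arrays of 1 stage, the median SD over all probes was 0.16 log2 units both at 1.5 mm and at 2.0 mm (n = 4 arrays). The 10 synthetic spike-in RNAs of the array kit differed between the stages by -0.02 to 0.20 log2 units, and in 0 of 10 were the ranges of the arrays apart.

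**Figure D1:**
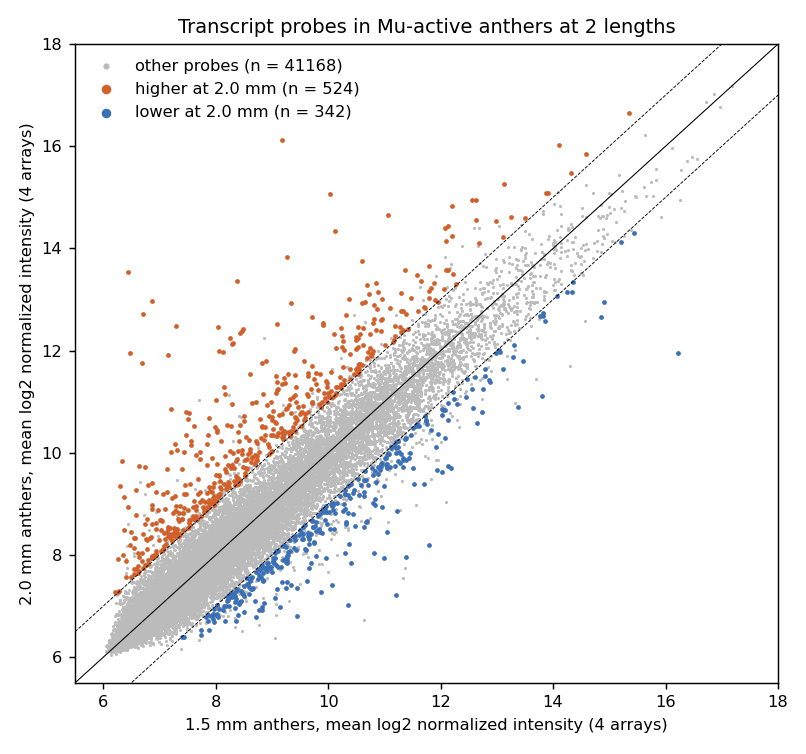
Mean log2 normalized intensity of each transcript probe in Mu-active anthers at 1.5 mm (horizontal axis) and at 2.0 mm (vertical axis), each over 4 arrays. The solid line marks equal levels and the dashed lines a 2-fold difference, with 524 probes higher in orange and 342 lower in blue, and the largest differences lie on the upper side.

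The balance between the directions moved with the scaling. When channels were scaled to a common median in place of quantile normalization, 372 probes were higher and 426 lower, so that the share of higher probes among those called went from 60.5% to 46.6%, and 367 of the 524 higher and 308 of the 342 lower probes were called again. Array 4 at 1.5 mm stood apart most, with 269 probes at least 2-fold below and 214 at least 2-fold above the other 3 arrays of its stage, compared with at most 162 below and 219 above on any of the other arrays of the 2 stages. Without it, 663 probes were higher and 567 lower.

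The largest differences belonged to probes without a gene model in the sources used here. Probe A_92_P038793 read 72, 103, 87 and 90 units on arrays 1 to 4 at 1.5 mm and 20462, 30980, 9098 and 3431 at 2.0 mm. The 1.5 mm values sat close to the cutoff for ON (3 of 4 were well above background), and every 2.0 mm value was many times higher, a 136-fold difference (7.09 log2 units). A separate probe to the same EST contig, A_92_P040839, was well above background on 0 of 4 arrays at 1.5 mm (67.5 to 78.7 units) and read 97.0 to 238 units at 2.0 mm. It was 1 of 6 called probes that were OFF on all 4 arrays at 1.5 mm and ON on all 4 at 2.0 mm. By this measure, 0 probes called lower went from ON to OFF. The cutoff for ON was lower on arrays 2, 3 and 4 at 2.0 mm than on any 1.5 mm array. Probe A_92_P021732 differed by 6.95 log2 units, with 257, 4075, 506 and 211 units at 1.5 mm and 97342, 180834, 66855 and 22403 at 2.0 mm, where array 2 was the highest at both lengths. In the other direction, A_92_P035423 read 64760, 97342, 78132 and 69536 units at 1.5 mm and 3717, 565, 15509 and 7658 at 2.0 mm, a 19.2-fold lower level whose 2.0 mm arrays were themselves widely spread (SD 2.06 log2 units).

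Of the 524 higher probes 154 could be paired with a gene model or a description, and of the 342 lower probes 114. The 60-base probes behind several of the annotated differences are shown as the array design lists them, 5′ to 3′, because each value below is the signal of that stretch only. They belong to 5 transcripts that were higher at 2.0 mm and 2 that were lower.
MtN3 protein precursor (GRMZM2G168365): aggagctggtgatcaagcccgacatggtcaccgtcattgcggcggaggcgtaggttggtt
organic anion transporter (GRMZM2G040033): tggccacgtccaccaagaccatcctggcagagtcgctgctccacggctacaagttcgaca
alpha carbonic anhydrase (GRMZM2G009633): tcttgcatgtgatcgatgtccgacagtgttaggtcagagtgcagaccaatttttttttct
dihydroflavonol-4-reductase, partial: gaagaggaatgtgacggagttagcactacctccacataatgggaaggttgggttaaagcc
oxygen-evolving enhancer protein 3-1 (GRMZM2G058070): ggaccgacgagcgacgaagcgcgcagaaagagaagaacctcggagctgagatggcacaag
ribosomal protein L29 (GRMZM2G149975): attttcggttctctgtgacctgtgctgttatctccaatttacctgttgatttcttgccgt
GRMZM2G144853: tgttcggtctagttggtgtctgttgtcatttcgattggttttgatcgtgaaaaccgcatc

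Among the 15 largest annotated differences upward were those of an MtN3 protein and of an anion transporter. The MtN3 protein precursor gene GRMZM2G168365, of the membrane protein family that includes the SWEET sugar transporters, read 158, 1087, 607 and 150 units at 1.5 mm and 3946, 4530, 7080 and 6307 at 2.0 mm. Its arrays were tight at 2.0 mm and spread at 1.5 mm, where arrays 2 and 3 were high, and the ranges were apart by a wide margin (3.91 log2 units). A gene annotated as an organic anion transporter, GRMZM2G040033, read 151, 546, 411 and 179 units against 5553, 8685, 3209 and 1714. Here too arrays 2 and 3 were the higher ones at 1.5 mm, and the mean was 14.5-fold higher at 2.0 mm. The smaller difference of a transmembrane amino acid transporter gene, GRMZM2G042933, was 2.51 log2 units. It read 78.8, 89.4, 88.0 and 90.8 units at 1.5 mm, near the cutoff, and 1124, 1215, 405 and 106 at 2.0 mm. On array 4 its level was only just above the 1.5 mm range.

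A DUF966 protein gene of unknown function, GRMZM2G070442, had the largest difference among annotated probes. It read 283, 349, 227 and 740 units at 1.5 mm and 4550, 4124, 12130 and 4059 at 2.0 mm, 15.4-fold higher, with the single highest value on array 3. This gene is also 1 of the 21 markers that the study lists for pluripotent cells of younger anthers. It was the only one of them called (4.76% higher, against 1.25% of all probes), the median of that list being -0.07. The alpha carbonic anhydrase gene GRMZM2G009633, of the family of enzymes that interconvert carbon dioxide and bicarbonate, read 717, 279, 481 and 99 units at 1.5 mm and 2924, 3053, 2207 and 774 at 2.0 mm. The highest array at 1.5 mm and the lowest at 2.0 mm nearly touched, and the mean difference was 6.3-fold. An actin-binding gene of the actinin type, GRMZM2G162527, read 690, 1276, 746 and 917 units against 8949, 3946, 1727 and 1339, a difference of 1.77 log2 units that was larger on the Cy3 arrays (2.66) than on the Cy5 arrays (0.88). Its other probe differed by 1.68 log2 units with overlapping ranges.

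Several gene models without a description lay in the same range. GRMZM2G111998 read 383, 317, 260 and 311 units at 1.5 mm and 10678, 12163, 3211 and 982 at 2.0 mm, and GRMZM2G015648 read 118, 173, 186 and 123 against 2483, 2047, 2126 and 1124. The former was tight at 1.5 mm and spread at 2.0 mm, and the latter was tight at both, with differences of 3.84 and 3.67 log2 units. The other 7 of the 15 largest annotated rises that have a single probe, GRMZM2G034724, GRMZM2G049675, GRMZM2G108265, GRMZM2G018372, GRMZM2G132875, GRMZM2G029135 and GRMZM2G128986, differed by 2.63 to 3.60 log2 units. GRMZM2G061723 and GRMZM2G029912 each had 1 probe that was higher (3.14 and 2.94) and others that were not called, at -0.17 and -0.26 for the former and -0.03 for the latter, so the probes of these genes disagree.

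**Figure D2:**
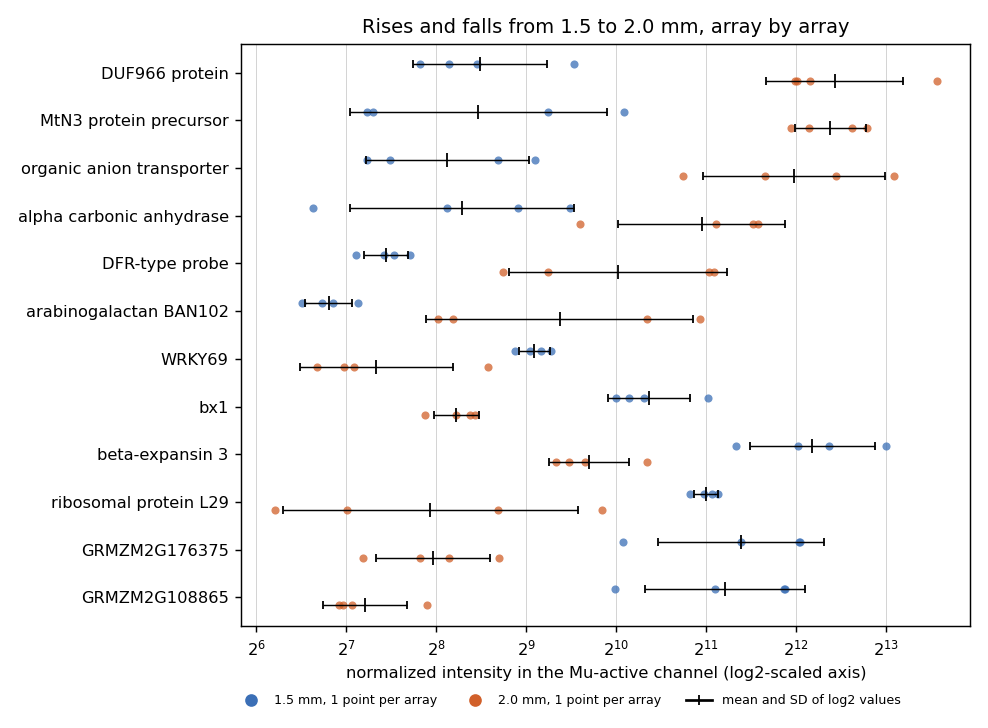
Normalized intensity of 12 named probes on each array (horizontal axis, log2-scaled), with 1.5 mm in blue and 2.0 mm in orange, 1 point per array and a bar for the mean and SD of the log2 values (n = 4). The upper 6 probes were higher at 2.0 mm and the lower 6 were lower, and in none of the 12 do the points of the 2 lengths overlap.

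Probes of the pollen wall and flavonoid pathway were called in both directions. A probe annotated as partial dihydroflavonol-4-reductase (DFR, a reductase of the flavonoid pathway whose relatives act in pollen wall formation) read 185, 172, 208 and 138 units at 1.5 mm and 2087, 2173, 427 and 604 at 2.0 mm, 6.0-fold higher. The DFR-annotated gene GRMZM2G057328 instead read 1078, 1071, 1910 and 684 units at 1.5 mm and 521, 321, 454 and 557 at 2.0 mm, 2.4-fold lower. The cytochrome P450 gene ms26, which maize needs for male fertility, read 76.9, 103, 93.7 and 111 units against 475, 155, 159 and 172. Its difference (1.15 log2 units) rests in part on array 1 at 2.0 mm, and it was called in 12 of 17 alternative settings. Of 19 tapetum and pollen wall probes 2 were higher (10.5%) and 1 lower (5.26%), beside 1.25% and 0.814% of all probes, with a median of 0.13. The called ones are ms26 and the DFR-annotated probes above, which the phenylpropanoid and flavonoid list holds as well. Among 6 probes named for mature pollen only the arabinogalactan protein gene BAN102 was called (16.7% higher, against 1.25% of all probes). BAN102 read 106, 140, 115 and 91.2 units at 1.5 mm and 260, 291, 1953 and 1301 at 2.0 mm. Its arrays 3 and 4 at 2.0 mm were far above arrays 1 and 2.

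Photosynthesis genes encode the thylakoid complexes that capture light and the Rubisco enzyme that fixes carbon. Of 17 probes annotated to photosynthesis 4 were higher at 2.0 mm (23.5%, against 1.25 over all probes) and 0 lower, with a median of 0.46 log2 units and a range of -0.05 to 2.38, and 16 of the 17 had a positive difference. The study also names photosynthesis genes of young anthers, 4 of which were matched to a probe here, and 3 of these 4 were higher, with a median of 2.16. The study had chosen its list on related anther samples, so it is not independent evidence of the direction, and psaN is in both lists.

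The subunit N of photosystem I (psaN, GRMZM2G080107) read 3537, 14841, 5424 and 4642 units at 1.5 mm and 35908, 47038, 27054 and 21435 at 2.0 mm. Array 2 was the highest at both lengths, the ranges were apart, and the mean was 5.2-fold higher. The small subunit of Rubisco (rbcS, GRMZM2G098520) read 877, 2253, 1025 and 1309 units at 1.5 mm and 7302, 6827, 6291 and 6200 at 2.0 mm. Its 2.0 mm values were close together (SD 0.11 log2 units) and 5.2-fold above those at 1.5 mm. Plastocyanin, the copper protein that carries electrons to photosystem I, read 4432, 8052, 3533 and 3875 units against 28263, 21184, 13485 and 17435, 4.1-fold higher. The reductase gene pcr1 (GRMZM2G084958), of chlorophyll synthesis, read 9066, 7413, 3609 and 6511 units against 20951, 27604, 26698 and 22189, 3.8-fold higher and apart on every array. These genes were widely spread at 1.0 mm, where pcr1 lay between 3245 and 29104 units, its highest value being above every 2.0 mm value. There psaN lay between 934 and 20877, plastocyanin between 1266 and 7783 and rbcS between 774 and 3663 units, each below its 2.0 mm values.

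Other thylakoid proteins passed with smaller margins. Oxygen-evolving enhancer protein 3-1, of photosystem II, read 410, 285, 294 and 277 units at 1.5 mm and 1267, 1082, 524 and 798 at 2.0 mm, a difference of 1.48 log2 units. PsaF, of photosystem I, read 4477, 7121, 3516 and 2966 units against 9151, 9512, 7344 and 12521, where the highest array at 1.5 mm and the lowest at 2.0 mm differed by little. At 1.0 mm PsaF lay between 1069 and 8130 units, which reaches into its 2.0 mm range. The related protochlorophyllide reductase B gene GRMZM2G073351 was not called, with 4591, 4432, 3227 and 6452 units against 5785, 7700, 10535 and 11612. The large subunit of Rubisco, which the chloroplast genome encodes, read 13080, 7822, 8096 and 12786 units at 1.5 mm and 27784, 44028, 7593 and 8485 at 2.0 mm. Its 2.0 mm arrays split by dye, with both Cy3 arrays above every 1.5 mm value, Cy5 array 4 inside the 1.5 mm range and Cy5 array 3 just below it.

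**Figure D3:**
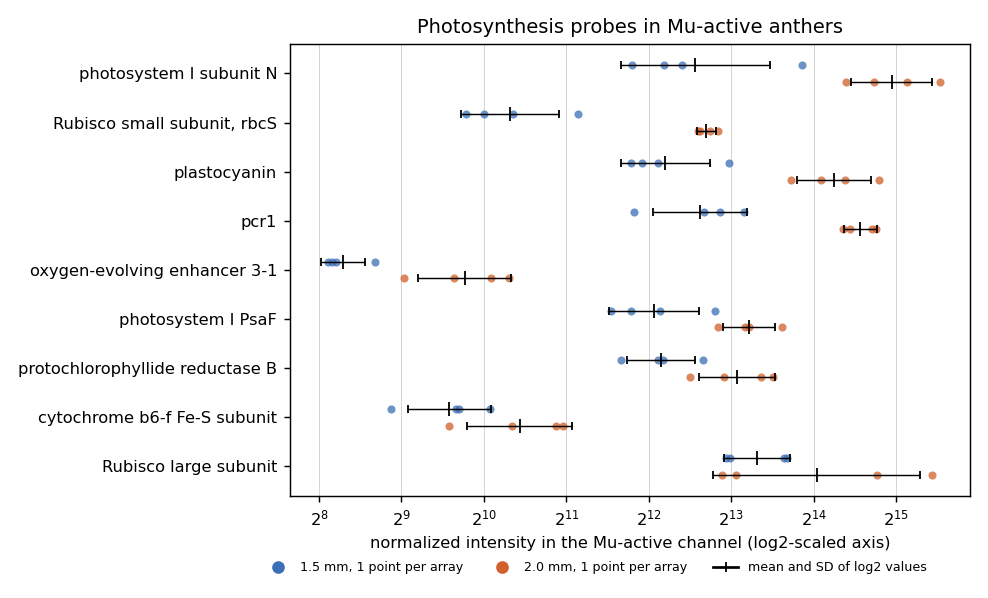
Normalized intensity of 9 photosynthesis probes on each array (horizontal axis, log2-scaled), 1.5 mm in blue and 2.0 mm in orange, with the mean and SD of the log2 values (n = 4). The points of the 2 lengths are apart in the upper 6 probes and overlap in the lower 3.

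The study lists transcripts enriched, in younger anthers of 0.7 mm, in microdissected epidermis and endothecium, archesporial cells, middle layer and tapetum, or connective tissue and vasculature, and the 4839 probes of these lists fall in 1 list each. Among the 1075 epidermis and endothecium probes 67 were higher at 2.0 mm (6.23%, against 1.25 over all probes) and 13 were lower (1.21%). The median difference of the list was 0.03, so the larger share of higher probes comes from a minority of its members. Relative to the 1049 ON members, 6.39% were higher, against 1.77 over all ON probes. Under the alternative settings the number of higher members lay between 45 and 104 and that of lower members between 11 and 74.

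The called members of the outer-layer list include psaN, rbcS, plastocyanin, pcr1 and PsaF. They also include the glutathione S-transferase gene GST3 (2173, 2117, 1104 and 1325 units against 12478, 17107, 6168 and 2919) and the ferredoxin gene fdx5 (845, 1435, 736 and 729 units against 2727, 2513, 2130 and 2328). Both were apart on every array, GST3 with a wide and fdx5 with a narrow spread at 2.0 mm. The plastid sigma factor gene sig2B, for a subunit of the plastid RNA polymerase, differed by 1.04 log2 units. Among the 13 lower members, bx1, which makes indole for the benzoxazinoid defence compounds, read 2069, 1265, 1018 and 1131 units at 1.5 mm and 346, 331, 235 and 297 at 2.0 mm, 4.4-fold lower. The heat shock factor gene Hsf12 was lower as well (-1.12).

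The inner and vascular lists leaned the other way. Of 955 middle layer and tapetum probes 4 were higher (0.419%) and 20 lower (2.09%), with a median of -0.07, and of 811 connective tissue and vasculature probes 3 were higher (0.370%) and 23 lower (2.84%), with a median of -0.16. Of 1998 archesporial probes 41 were higher (2.05%) and 26 lower (1.30%), with a median of -0.05. These shares stand beside 1.25% higher and 0.814% lower over all probes. Of the ON archesporial members 2.16% were higher and 1.37% lower, against 1.77% and 1.15% over all ON probes. For the ON members these shares were 0.447% and 2.23% in the middle layer and tapetum list. They were 0.371% and 2.84% in the connective tissue and vasculature list. Without array 4 at 1.5 mm the lower members numbered 56 (5.21%) in the epidermis and endothecium list and 54 (2.70%) in the archesporial list. They numbered 21 (2.20%) in the middle layer and tapetum list and 35 (4.32%) in the connective tissue and vasculature list, beside 1.35% over all probes. Of these lists, epidermis and endothecium then had the highest share of lower members. The higher members numbered 85 (7.91%), 45 (2.25%), 6 (0.628%) and 5 (0.617%) in the same order, beside 1.58%.

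**Figure D4:**
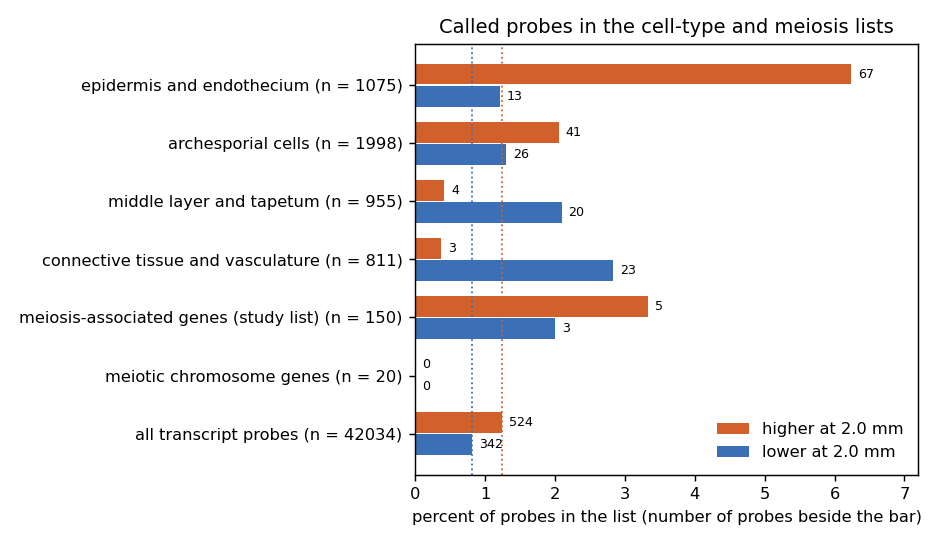
Percent of the probes of each list that were higher (orange) or lower (blue) at 2.0 mm in Mu-active anthers, with the number of probes beside each bar and dotted lines at the shares over all 42034 probes. With no array left out, the epidermis and endothecium list has the highest share of higher probes of the lists drawn. The connective tissue list then has the highest share of lower ones.

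A cell wall gene and a regulator were among the lower members of the middle layer and tapetum list. Beta-expansin 3, a wall-loosening protein, read 8174, 5284, 2578 and 4141 units at 1.5 mm and 714, 805, 1296 and 645 at 2.0 mm, 5.6-fold lower with the ranges apart. The transcription factor gene WRKY69 read 526, 619, 573 and 469 units against 126, 382, 102 and 136, where array 2 at 2.0 mm lay above its 3 partners but below every 1.5 mm value. Of the undescribed members, GRMZM2G108865 was second in size among all lower probes, with 3733, 2191, 3745 and 1017 units against 121, 125, 239 and 134 (15.9-fold), and GRMZM2G176375 and GRMZM2G049109 were 10.7-fold and 6.2-fold lower. The kinase gene PPCK4, whose product acts on phosphoenolpyruvate carboxylase, was 1 of the 4 higher members (2868, 6551, 3802 and 7276 units against 14475, 13830, 10413 and 8757).

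Of the 23 lower members of the connective tissue and vasculature list, 4 with an annotation are given here. MCM6, a subunit of the helicase that opens DNA for replication, read 684, 435, 276 and 525 units at 1.5 mm and 220, 182, 269 and 237 at 2.0 mm, and array 3 at 1.5 mm came close to the 2.0 mm values. It was called in 10 of 17 alternative settings. A second gene with an MCM ATPase motif, GRMZM2G139894, read 2323, 1398, 1261 and 1582 units against 594, 482, 1144 and 758 (-1.18). Of 15 cell cycle and replication probes only MCM6 was called (6.67% lower, against 0.814% of all probes), with a median of -0.02. Of 5 core histone probes 0 were called (-0.10 to 0.08), against 2.06% of all probes, so that few or none would be called in so short a list. The myo-inositol phosphate synthase gene lpa1 differed by -1.01 log2 units and an elongation factor gene annotated EF1A by -1.27.

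Of 44 ribosomal protein probes 0 were higher (1.25% of all probes) and 2 lower (4.55%, against 0.814% of all probes), and the median was 0.03. The L29 gene GRMZM2G149975 read 2237, 2010, 2144 and 1811 units at 1.5 mm and 413, 128, 916 and 73.7 at 2.0 mm, 8.4-fold lower. Its 1.5 mm arrays were tight (SD 0.13 log2 units) and its 2.0 mm arrays were widely spread (SD 1.64), high on arrays 1 and 3 and low on arrays 2 and 4. The undescribed genes GRMZM2G154278 (2640, 3080, 5553 and 3580 units against 444, 131, 1516 and 84.9) and GRMZM2G144853 (942, 1192, 2016 and 1478 against 283, 117, 887 and 94.2) had the same order of arrays at 2.0 mm. At 1.0 mm the arrays were widely spread as well, with L29 between 119 and 6551 units. There GRMZM2G154278 lay between 127 and 3625 and GRMZM2G144853 between 126 and 1202 units. The S10 gene GRMZM2G065237 was lower by 1.01 log2 units with 161, 268, 279 and 376 units against 105, 146, 159 and 114, and this call was kept in 6 of 17 alternative settings.

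Both probes of a MADS-box gene were lower. GRMZM2G099522, annotated as MADS14 and M14, read 17498, 12904, 14475 and 13080 units at 1.5 mm and 6215, 6163, 8788 and 6369 at 2.0 mm on 1 probe, and 848, 627, 609 and 994 against 468, 201, 332 and 422 on the other. Both sets of ranges were apart, with differences of -1.08 and -1.15 log2 units. The 2 probes of this gene are 20% of 10 MADS-box probes, against 0.814% lower over all probes. None of the other 8 MADS-box probes was called. The small heat shock protein gene hsp22 read 417, 642, 922 and 286 units against 179, 150, 271 and 230. It was the only one of 25 chaperone probes called (4% lower, against 0.814% of all probes).

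Genes of meiotic chromosomes form the cohesin rings, breaks and pairing machinery on which homologs recombine. Of 20 probes for such genes, 16 of them ON, 0 were called (against 2.06% of all probes, so that a list of this size would hold few or none), with a median of -0.07 and a range of -0.48 to 0.24. Ameiotic 1 (am1), which maize needs to enter meiosis, had the most negative value of the 20, with 156, 171, 157 and 129 units at 1.5 mm and 114, 118, 103 and 104 at 2.0 mm. Its ranges did not overlap, but the difference was under 2-fold. The cohesin subunit gene SMC3 read 1803, 1358, 1931 and 1635 units against 1846, 1378, 1844 and 2002 on its brightest probe, with the arrays of the 2 lengths interleaved. For Spo11-1, which makes the breaks that start recombination, the 2 probes differed by 0.00 and 0.24 and lay between 90 and 199 units. The pairing gene phs1 read 157, 152, 163 and 97.3 units against 95, 109, 84.4 and 87.5, at -0.58 and overlapping. It is from a separate list of 6 core meiotic probes of the study, of which 0 were called, again against 2.06% of all probes.

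Of the study's wider list of meiosis-associated genes, the 150 probes matched here (138 ON) held 5 that were higher (3.33%, against 1.25 over all probes) and 3 that were lower (2.00%, against 0.814), with a median of -0.09. All 5 higher probes are also in the archesporial list, and the lower ones are in that list or in the middle layer and tapetum list. The 2 largest differences belonged to GRMZM2G336761 (174, 675, 720 and 784 units against 2162, 1474, 2598 and 2076, 2.01 log2 units) and GRMZM2G163514 (523, 537, 679 and 358 against 2545, 3017, 1294 and 753, 1.69). The former was apart although array 1 at 1.5 mm lay well below its partners, and the latter came closest on array 4. The inositol phosphate kinase gene ITPK1 (lpa2) was the brightest of the list, with 3793, 8704, 15760 and 3516 units at 1.5 mm and 17611, 19508, 17611 and 16298 at 2.0 mm. Its 2.0 mm values were tight, and array 3 at 1.5 mm almost reached them. The lower probes (GRMZM2G021270, GRMZM2G157505 and GRMZM2G092232) lay close to the 2-fold threshold, the largest at -1.05.

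The probe named MuDR-TIRA read 216, 266, 155 and 250 units at 1.5 mm and 740, 555, 377 and 541 at 2.0 mm. It was 2.5-fold higher with the ranges apart (SD 0.35 and 0.40 log2 units). The probes for the 2 genes of the element, MUDRA and its variant MUDRA-21 for the transposase and MUDRB for its partner, differed by 0.12, 0.50 and 0.17 and were not called. MUDRB, for example, read 276, 278, 280 and 234 units against 283, 278, 265 and 386. Of 14 transposon probes MuDR-TIRA was the only one called (7.14% higher, against 1.25% of all probes), and a list of this size would hold few or none.

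The Mu-inactive sample of the same 8 arrays gave a similar number of calls, 496 higher (1.18%) and 366 lower (0.871%). As both lines shared arrays and slides, the 2 comparisons are not independent. Of the probes called higher, 314 were called in both lines, 59.9% of the Mu-active and 63.3% of the Mu-inactive list, and of those called lower 166 were shared, 48.5% and 45.4%. The difference in the Mu-inactive line had the same sign for 520 of the 524 higher and 336 of the 342 lower probes. Across 42034 probes the 2 differences had a Pearson correlation of 0.81, given as a description since probes share the arrays. A limma contrast of the within-array ratio of the lines, 2.0 mm against 1.5 mm, tested where the change differed between them. With p-values adjusted by Benjamini-Hochberg for all 42034 probes, limma called 0 probes at 0.05, the smallest adjusted p being 0.543, while 2826 probes (6.72%) had an unadjusted p under 0.05. Other settings of the limma fit gave 0 to 3 probes.

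The values of single probes are given side by side. The difference of the actinin-type gene GRMZM2G162527 was 1.77 log2 units in the Mu-active and 0.03 in the Mu-inactive line, and that of GRMZM2G029135 was 2.74 and 0.22. For the L29 gene the values were -3.06 and -1.31, and for MuDR-TIRA 1.31 and 0.84. The photosynthesis genes psaN (2.38 and 1.97) and rbcS (2.38 and 1.89) were higher in both lines. None of these pairs differed by the limma contrast at the threshold.

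Compared with 1.0 mm anthers, whose 4 Mu-active channels lay on another slide, most of the higher probes had been level before. Of the 524, 474 differed by less than 2-fold between the means at 1.0 and 1.5 mm, 34 were at least 2-fold higher and 16 at least 2-fold lower at 1.5 mm. Of the 342 lower probes, 278 had been level and 62 were at least 2-fold higher at 1.5 mm than at 1.0 mm. Among the 33 probes lower by at least 4-fold this was the case for 18, such as bx1, which lay between 236 and 552 units at 1.0 mm. At 2.0 mm 163 of the 342 lower probes were within 2-fold of their 1.0 mm mean and 177 at least 2-fold below it.

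The probes with the largest differences varied together among the arrays of a stage. Of the 121 probes at least 4-fold higher, 53.7% had their highest 2.0 mm value on array 2 and 59.5% their lowest on array 4, and at 1.5 mm 57.0% were highest on array 2. In the Mu-inactive channel of the same arrays, the same probes were most often highest on array 1 (54.5%) and lowest on array 2 (53.7%) at 2.0 mm. The median SD of these 121 probes was 0.46 log2 units at 1.5 mm and 0.64 at 2.0 mm. It was 0.37 and 0.42 over the 524 higher probes and 0.37 and 0.33 over the 342 lower ones. The 0.16 over all 42034 probes is not a like comparison, since only 29618 of them were ON at 1 or both stages. The part of the array in these differences was not tested.

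Other genes had large mean differences but overlapping arrays. Lipoxygenase 1 (lox1), of the lipoxygenases that start oxylipin and jasmonate synthesis, read 22334, 3561, 5350 and 362 units at 1.5 mm and 2707, 942, 1183 and 271 at 2.0 mm on 1 probe, with a mean difference of -1.89. The order of the arrays was the same at both lengths, high on array 1 and low on array 4. The glutathione S-transferase gene gst20 read 52236, 29989, 29104 and 7489 units against 5061, 11666, 5024 and 4650 (-1.99). The allene oxide synthase-type P450 gene CYP74A18, of the jasmonate branch, read 3294, 2622, 3023 and 899 units against 1002, 1451, 640 and 539 (-1.39). In both, the low array 4 at 1.5 mm reached into the 2.0 mm range.

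Array 2 at 2.0 mm was the high one in several regulators. TIFY4, of the family that includes the JAZ repressors of jasmonate signaling, read 112114, 104025, 128384 and 58444 units at 1.5 mm and 39768, 145804, 38405 and 40416 at 2.0 mm. WRKY53 read 5897, 8118, 4852 and 1607 units against 2107, 8389, 906 and 1752, and MYBR95 read 9455, 5520, 6900 and 628 against 990, 3625, 273 and 758. In all 3, array 4 at 1.5 mm was the low one. The median difference was -0.46 over 6 jasmonate probes and -0.64 over the study's 5 probes of jasmonic acid biosynthesis. It was -0.35 over 22 WRKY probes and -0.39 over 11 NAC probes. In the Mu-inactive channel these medians were -0.08, -0.73, -0.001 and -0.37 in the same order. Under the alternative settings they ran from -0.97 to -0.08, -0.77 to -0.48, -0.92 to -0.001 and -0.98 to -0.25. Of these probes only WRKY69 was called, 4.55% of the WRKY list, against 0.814% lower over all probes. A lipid transfer protein gene, GRMZM2G448739, was not called either, with 211, 10022, 10413 and 182 units at 1.5 mm and 32560, 724, 4473 and 18743 at 2.0 mm.

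**Figure D5:**
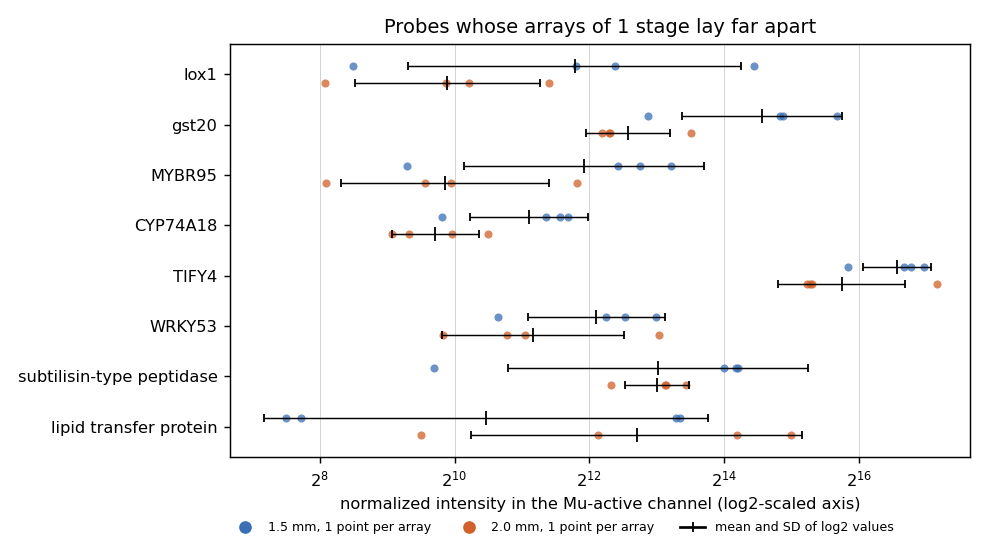
Normalized intensity of 8 probes whose arrays of 1 stage lay far apart (horizontal axis, log2-scaled), 1.5 mm in blue and 2.0 mm in orange, with the mean and SD of the log2 values (n = 4). None of the 8 was called, because the points of the 2 lengths overlap in each.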

How the data were processed

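RNA of Mu-active and Mu-inactive anthers was hybridized to 2-color Agilent arrays, 4 per stage. For every array the authors deposited scanner files (Feature Extraction 9.5.3.1) with the median foreground intensity of 43451 spots per channel on a linear scale, not normalized, and a log10 ratio of Cy5 over Cy3. The log10 ratio deposited by the authors was used in 1 alternative. They also deposited pooled log2 ratios per stage, the authors' values, whose direction is not stated. Across probes these had a Pearson correlation of 0.988 at 1.5 mm and 0.991 at 2.0 mm with the log2 ratio of Mu-active over Mu-inactive computed here, and they were not used otherwise.

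With limma 3.58.1 (R 4.3.3), all 12 arrays were normalized together, first within each array (loess) and then between all channels (quantiles), without background subtraction. The study's methods name LOWESS within arrays and a quartile method between arrays, on median foreground values, and here limma's quantile method was used for the latter. The methods set 2-fold for comparisons between stages and the rule for ON. The Mu-active channel was Cy3 on arrays 1 and 2 and Cy5 on arrays 3 and 4 of each stage. Replicate numbers in the text are array numbers. Intensities were averaged as log2 values. The lines were compared by limma (lmFit, eBayes) on the log2 ratio of each of the 12 arrays, with 1 coefficient per stage and a dye term. The procedure was tested on simulated data. The number of arrays limits the precision.

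Probes were named through the study's supplementary tables (gene models for 7743 of 42034 probes, descriptions for 2369, probe sequences for 2774). Of 6832 gene models 5319 were found in the RefSeq gene table (Zm-B73-REFERENCE-NAM-5.0), which gave symbols. No genome coordinates are given.

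The genes named are the 15 largest annotated differences each way and the 3 largest each way over all probes (ON, called, and at least 1.5-fold in each dye), up to 4 called members and the brightest member of each of 41 gene lists, and all MuDR probes. Not all of the genes that meet this rule are given with their values. The genes GRMZM2G042933, GST3, fdx5, sig2B, Hsf12, PPCK4, GRMZM2G139894, lpa1, EF1A, lox1, phs1, GRMZM2G448739, the Rubisco large subunit and the photosynthesis probes not called were added after their values were seen. The members and the lists were chosen with earlier results of these data known. Alternatives were other normalizations, background correction, Agilent's processed signals, 1 dye alone, the other channel, spots with outlier flags left out, other thresholds, and each array left out.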

Additional observations from a re-analysis of the deposited data

Results flagged for a closer look

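Among the named probes, 15 of 202 sets of 4 arrays had 1 array far from the other 3 by Dixon's criterion at 95% (its gap to the nearest array against the whole range). Chance alone gives about 1 in 20, here 10.1. Array 3 at 2.0 mm was the low one for LIM12 (182 units) and the ribosomal protein S2 gene GRMZM2G159237 (11577 units), and the high one for the MADS14 gene GRMZM2G099522 (8788 units), GRMZM2G337190 (232 units), GRMZM2G108865 (239 units), GRMZM2G108265 (1433 units) and the DUF966 gene GRMZM2G070442 (12130 units). Array 2 at 2.0 mm was high for gst20 (11666 units) and TIFY4 (145804 units), and array 1 at 2.0 mm was high for ms26 (475 units).

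At 1.5 mm, array 4 was low for the subtilisin-type peptidase gene GRMZM2G091578 (826 units) and for MUDRB (234 units). Array 1 was low for GRMZM2G336761 (174 units) and high for oxygen-evolving enhancer protein 3-1 (410 units), and array 2 was high for GRMZM2G029912 (1098 units).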

How the results depend on the processing

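Under the alternatives 1610 values of named probes stayed within the spread between arrays and 107 moved. Of those called, 0 changed sign, whereas some that were not called did, such as WRKY53, which ranged from -1.56 to 0.26. With Agilent's processed signals 1727 probes were higher and 1089 lower, and the median of all probes shifted to 0.12 log2 units. With 1 dye alone, which leaves 2 arrays per stage, the Cy3 arrays gave 960 higher and 935 lower and the Cy5 arrays 693 higher and 581 lower. At 1.5-fold 1109 were higher and 1034 lower, at 4-fold 121 and 33, and at 2-fold alone, ranges overlapping or not, 702 and 617. Leaving out each array in turn gave 523 to 663 higher and 346 to 567 lower, the 567 without 1.5 mm array 4. The probes ON numbered 24723 to 25070 at 1.5 mm and 25300 to 26830 at 2.0 mm with 1 array left out. For the limma contrast of line and stage the count was 2 with Agilent's log ratio and 0 to 3 with 1 array number left out, 3 each without arrays 2 and without arrays 4. The causes were not tested. The 1-dye and left-out settings also hold fewer arrays. The lines were paired within arrays. No pairing of samples between the lengths was possible, because the lengths lie on different arrays and the labels do not tie their replicate numbers to arrays. With raw medians below 1.5 times the negative controls, weak transcripts could not be compared reliably.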

Other observations

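Of the 41 gene lists 22 had no called member. With 2.06% of all probes called, short lists such as these would hold few or none. They held 3 to 34 probes each, with medians from -0.64 to 0.16 log2 units, and include the auxin (25 probes), gibberellin (5), MYB (27), bHLH (24), homeobox (20) and starch and sucrose (19) lists. The subtilisin-type peptidase gene GRMZM2G091578, not called, read 16425, 18489, 18813 and 826 units at 1.5 mm and 8904, 11073, 9013 and 5105 at 2.0 mm. In the cytokinin turnover list the cytokinin-O-glucosyltransferase gene GRMZM2G041699, for an enzyme that stores cytokinin as a glucoside, read 869, 536, 694 and 361 units against 4295, 4673, 745 and 1000. Its Cy3 arrays were 2.71 and its Cy5 arrays 0.79 log2 units higher at 2.0 mm, and the ranges overlapped on array 3.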
